A study of Rattus norvegicus with 15 samples.

Results

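Mitosis and cytokinesis were followed here through 55 genes listed by their role in cell division, from the cyclin-dependent kinase engine to the condensins that pack the chromosomes. A gene counted as measured where at least 1 probe set of the Affymetrix Rat Genome 230 2.0 array carried its symbol and no other. This held for 49 of the 55 genes, out of 14217 genes measured on the array in all. The 49 genes had 70 probe sets, 33 genes with 1 and 16 with several, and each gene was read from the probe set with the highest mean log2 signal over the 15 arrays. Nek2, Ndc80, Kif4a, Tpx2, Anln and Ncapg were not analysed here.

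The study compared 3 groups of 5 kidneys each from male rats aged 10 to 12 weeks. The control group (ctr) held untransplanted kidneys from rats of the strain Lewis-Brown-Norway (LBN), per the series description the second kidneys of donors. In the syngeneic group (sTX) a left LBN kidney was transplanted into an LBN recipient, and in the allogeneic group (aTX) a left LBN kidney was transplanted into a Lewis recipient, which leads to acute rejection. All recipients had lost both own kidneys at surgery, and the grafts were removed on day 4 per the methods. The sources used here do not say which control came from the donor of which graft. The labels are not free of conflict. Some name Lewis donors, Lewis recipients for the syngeneic grafts or LBN recipients for the allogeneic grafts, and the treatment field of sTX 4 and sTX 5 says allogeneic while their titles say syngeneic. Groups were taken from the titles, and the counts of called genes are also given without those 2 arrays.

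A dividing cell enters mitosis when the kinase Cdk1, bound to cyclin A or cyclin B, becomes active, and leaves it when the anaphase-promoting complex marks cyclin B and securin for destruction. Between these steps the spindle checkpoint holds the cell until every chromosome is attached at its kinetochore, and afterwards the central spindle and its partners cut the cell into daughters. Most of these genes are silent in resting cells and are transcribed together late in the cell cycle. The adult kidney has few dividing cells, while injured tubules, infiltrating leukocytes and expanding fibroblasts can all divide.

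The late timing of this transcription has been traced in many of these genes to a short promoter element, the cell cycle genes homology region (CHR), to which the DREAM and MuvB complexes bind, and to CCAAT boxes bound by NF-Y. Promoters from RefSeq (build GRCr8; 250 bases before to 50 bases after the transcription start) were found for 48 of the 55 genes as 49 entries, since Kif2c has 2. No entry was used for Ccna2, Foxm1, Aurkb, Incenp, Ube2c, Tpx2 and Racgap1. Each window was searched on both strands for CHR, which was spelled either as TTTGAA or in its palindromic form, which is TTCGAA, and for the box CCAAT. On the other strand the first reads TTCAAA and the box reads ATTGG. In 2 places a CHR match and a CCAAT match shared bases. The promoters of 6 genes that rose in the grafts are printed to show the spacing of these letters, followed by those of Melk, which fell, and Kif11, which was not called in any comparison. Each is printed 5′ to 3′ on the strand of its gene and ends at the base before the start, and capitals mark every CHR and CCAAT match.
Cdk1, chr20:19265143-19265292, plus strand: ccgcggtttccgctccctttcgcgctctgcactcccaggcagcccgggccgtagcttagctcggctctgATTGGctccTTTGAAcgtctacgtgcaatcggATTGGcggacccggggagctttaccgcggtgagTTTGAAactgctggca
Ccnb2, chr8:79981659-79981808, minus strand: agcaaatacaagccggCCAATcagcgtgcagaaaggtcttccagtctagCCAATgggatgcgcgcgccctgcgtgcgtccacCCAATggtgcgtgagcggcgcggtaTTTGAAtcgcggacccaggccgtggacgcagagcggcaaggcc
Prc1, chr1:143659331-143659480, plus strand: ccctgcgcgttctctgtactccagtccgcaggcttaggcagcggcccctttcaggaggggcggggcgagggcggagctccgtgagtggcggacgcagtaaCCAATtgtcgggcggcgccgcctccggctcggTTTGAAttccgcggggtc
Spc25, chr3:74396719-74396868, minus strand: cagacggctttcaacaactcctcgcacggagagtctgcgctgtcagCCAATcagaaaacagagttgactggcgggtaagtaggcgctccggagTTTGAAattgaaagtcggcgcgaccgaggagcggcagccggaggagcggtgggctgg
Top2a, chr10:84473094-84473233, minus strand: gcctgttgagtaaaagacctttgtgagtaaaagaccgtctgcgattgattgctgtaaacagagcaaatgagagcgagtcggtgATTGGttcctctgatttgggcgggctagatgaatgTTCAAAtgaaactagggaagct
Ccnb1, chr2:33655226-33655375, minus strand: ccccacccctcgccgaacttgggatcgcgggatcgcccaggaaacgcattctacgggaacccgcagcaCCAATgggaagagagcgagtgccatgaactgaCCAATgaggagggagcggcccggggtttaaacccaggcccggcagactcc
Melk, chr5:63336001-63336150, plus strand: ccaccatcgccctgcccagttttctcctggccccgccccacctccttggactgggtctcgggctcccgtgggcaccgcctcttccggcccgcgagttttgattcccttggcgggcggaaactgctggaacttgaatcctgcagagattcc
Kif11, chr1:244536717-244536866, plus strand: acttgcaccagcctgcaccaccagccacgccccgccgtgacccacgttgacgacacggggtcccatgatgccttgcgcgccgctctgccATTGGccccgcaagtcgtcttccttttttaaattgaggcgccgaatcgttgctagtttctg

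In the printed stretch of Ccnb2 the CHR match began 43 bases before the start, downstream of 3 CCAAT matches in a row, and a second CHR match lay upstream of that stretch, 214 bases before the start. Cdk1 held CHR at 72 and at 16 bases before the start, Prc1 at 18 and Spc25 at 57. Top2a held it at 22 and, upstream of the printed stretch, at 152. Ccnb1 held 2 CCAAT matches and no CHR letters in this window, Kif11 held 1 CCAAT match, and Melk held neither. A CHR match was found in 35 of the 49 entries (71.4%), against 19.7% of the 33469 promoters in the table. CCAAT was found in 37 entries (75.5%), against 37.5% of all promoters, and 2 or more CCAAT matches stood in 27 entries (55.1%), against 11.2%. CHR and CCAAT occurred together in 29 entries (59.2%), against 7.95% of all promoters. Of the 40 genes with an entry that were higher in allografts than in controls, 30 held CHR. The other 10 were Ccnb1, Cdca3, Aurka, Bub1, Cenpe, Cenpk, Kif2c, Dlgap5, Kif20a and Ncaph. Among genes with an entry, CHR stood in 11 of 14 called higher in allografts than in isografts. It stood in 19 of 26 that were higher in both grafts without such a call. Whether these 2 shares differ was not tested. A match of letters is a description of the sequence and was not tested for binding.

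**Figure D1:**
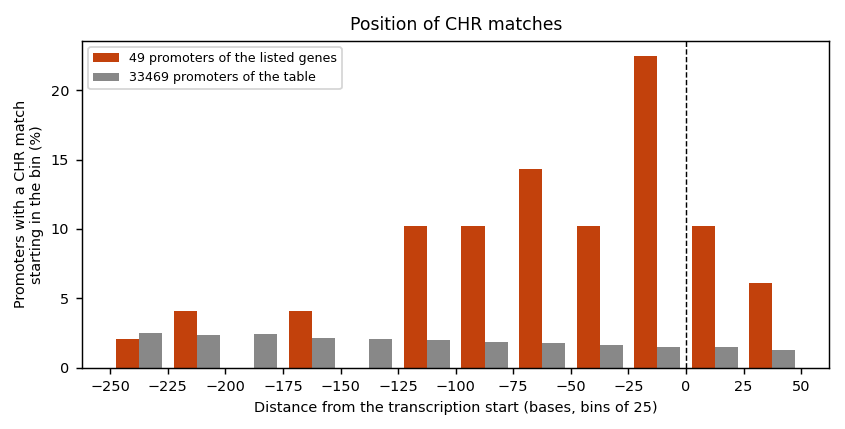
Share of promoters with a CHR match on either strand that begins in each bin of 25 bases, by distance from the transcription start, for the 49 promoters of the listed genes and for all 33469 promoters of the table. In the 25 bases before the start the share was 22.4% of the listed promoters and 1.47% of all, and further than 125 bases before the start it was at most 4.08% in any bin.

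The values are MAS5 signals, probe intensities that the authors scaled to a common mean, so a level is comparable between arrays for 1 probe set but not between genes. Instrument records give each array a time under a hybridization date, and the arrays fall into morning times and later ones. These 2 sets are called wash runs here, although that field does not name washing. Run 1 held the 5 controls with aTX 2, 3 and 4, and run 2 held the 5 isografts with aTX 1 and 5, so sTX and ctr share no run. The ratio of 3′ to 5′ signal, a measure of RNA integrity, was lower in the grafts. For Gapdh it was 1.17 ± 0.0468 (SD, n = 5) in ctr, 1.10 ± 0.0235 in sTX and 1.04 ± 0.0250 in aTX, and for actin 1.74 ± 0.168, 1.51 ± 0.0596 and 1.23 ± 0.0578 (exact two-sided permutation test, adjusted p = 0.0159 for each of the 6 comparisons). Its part in the results was not tested. Over all 31042 probe sets the log2 change had a median of 0.09 for sTX against ctr, of -0.07 for aTX against ctr and of -0.18 for aTX against sTX, and the changes below are to be read beside these shifts.

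The division genes were low in native kidneys and rose after either kind of transplantation. The median log2 change over the 49 genes was 2.21 in sTX against ctr and 2.66 in aTX against ctr. In sTX against ctr 46 genes were higher, 1 was lower (Melk) and 2 were not called (Cenpa and Kif11), in limma with Benjamini-Hochberg adjusted p below 0.05 over all 31042 probe sets. Of all probe sets 11.4% were called higher and 6.32% lower in that comparison. The same 46 genes were higher and Melk was again lower in aTX against ctr, where 20.2% of all probe sets were called higher and 22.2% lower. Both comparisons use the same 5 controls. In 43 genes every isograft lay above every control (8.44% of all probe sets), and in 45 genes every allograft did (16.4%). The direct comparison of aTX with sTX gave a median log2 change of 0.42, with 18 genes higher, 0 lower and 31 not called, where 13.9% of all probe sets were called higher and 22.1% lower. Of the 31, 6 had an unadjusted p below 0.05. With the wash run as a block 7 of the 18 were called, where 11.4% of all probe sets were higher, and without sTX 4 and sTX 5 there were 6, where 12.1% were. The methods' t-test found 5 genes higher and 0 lower at its threshold in this comparison, where 9.14% and 11.1% of all probe sets passed it. Under these 3 settings the share of the 49 genes called higher between the grafts was thus near that of all probe sets. Every allograft lay above every isograft in 15 genes (12.1% of all probe sets), and below in 0 genes (17.0%). Since many controls were dim, the size of the changes depends on the treatment of low signals: with 16 added to every signal before the logarithm the medians were 1.42 in sTX and 1.79 in aTX, each against ctr. Centring each array on its median turned the split in sTX against ctr from 3539 probe sets higher and 1961 lower to 1812 and 4724. In aTX against sTX it went from 4327 and 6857 to 5427 and 5242. No called change of the 49 genes changed sign with it. Most of them were larger than this shift, which took the array-wide median in sTX against ctr from 0.09 to -0.11. The sTX calls of Bub3 and Incenp were lost with centring. Between the grafts Ccnb1, Cks2, Pttg1, Kif2c, Nusap1 and Mki67 gained a call.

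**Figure D2:**
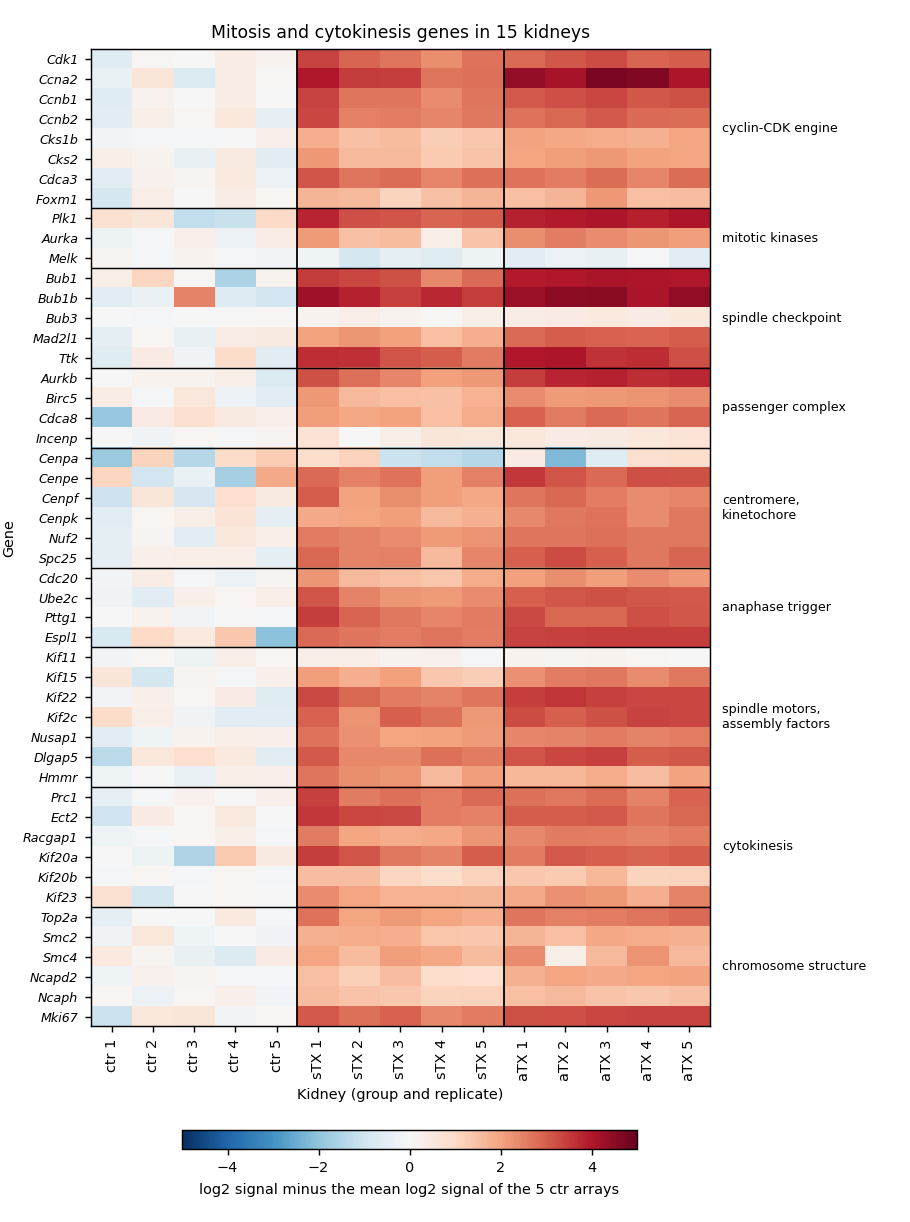
Log2 signal of the 49 genes (rows, grouped by role) in each of the 15 kidneys (columns), minus the mean log2 signal of the 5 ctr arrays, with red for higher and blue for lower. The rise fills both graft groups and 9 roles, with Melk, Bub3, Incenp, Cenpa and Kif11 the pale rows, and sTX 1 has the highest signal of the isografts in 40 of 49 genes.

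The kidneys of a group did not vary alike. Among the isografts sTX 1 had the highest signal in 40 of 49 genes, while sTX 4 had the lowest in 29 and sTX 5 in 11. The mean log2 signal over the 49 genes was 4.28 ± 0.166 (SD, n = 5) in ctr, 6.35 ± 0.274 in sTX and 6.77 ± 0.0386 in aTX. Single isografts ran from 6.06 (sTX 4) to 6.78 (sTX 1), and allografts from 6.72 to 6.82. The spread between allografts was the smallest of the 3 groups in 42 of the 49 genes, with a median SD of the log2 signal of 0.152 in aTX, 0.330 in sTX and 0.421 in ctr. Over all probe sets these medians were 0.289, 0.294 and 0.331. In ctr signals were also low: 44 genes had a mean under 50 there and 30 lay below 25.7, the mean of the control arrays' median signals. Set beside the allografts, sTX 1 exceeded every allograft in 15 genes and lay below every allograft in another 15. For sTX 4, whose treatment field says allogeneic, these numbers were 1 and 43, and for sTX 5, with the same conflict, 1 and 39. By mean log2 signal these 2 arrays were the isografts farthest from the allografts.

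All 8 genes of the cyclin-dependent kinase engine were higher in both grafts, with median log2 changes of 2.72 in sTX and 2.75 in aTX. Ccna2 encodes cyclin A, which partners Cdk1 at the entry into mitosis, and showed the largest change of the 49 genes in aTX. Its signal was 5.6, 10.8, 4.4, 9.3 and 7.5 in ctr 1 to 5, 113.2, 79.5, 78.3, 45.4 and 48.4 in sTX 1 to 5 and 150.5, 123.6, 184.7, 177.5 and 118.4 in aTX 1 to 5. The groups did not overlap, and within sTX the values of sTX 4 and sTX 5 were the lowest. The log2 change was 3.27 ± 0.26 (SE; adjusted p = 3.30e-08) in sTX against ctr, 4.38 ± 0.26 (adjusted p = 2.46e-11) in aTX against ctr and 1.11 ± 0.26 (adjusted p = 0.00175) in aTX against sTX. Cks2, a small subunit of the kinase, read 118.5, 110.3, 73.8, 131.5 and 66.5 in the controls, 437, 301.2, 293.9, 238.2 and 261.3 in the isografts and 382.7, 416.6, 434.1, 388.6 and 380.7 in the allografts. Here sTX 1 was the highest of all 15 kidneys, and the other isografts lay below every allograft. Cks2 rose 3.10-fold in sTX and 4.14-fold in aTX (adjusted p = 1.09e-06 and 3.55e-09), and its log2 change between the grafts was 0.42 ± 0.17 (adjusted p = 0.0613). Cdca3, which helps destroy the mitosis inhibitor Wee1, was not called between the grafts. It read 18.4, 31.4, 30.1, 37.8 and 22 in ctr, 238.1, 174.9, 188.7, 147.3 and 184.1 in sTX and 175.5, 161, 185.9, 147.6 and 189.1 in aTX, with a difference of -0.11 (95% confidence interval -0.45 to 0.23). Cdk1 itself stood at 32.1 ± 7.54 in ctr, 225 ± 61.1 in sTX and 256 ± 29.0 in aTX (mean ± SD). The log2 changes of Cdk1, Ccnb1 and Ccnb2 were 2.80, 2.75 and 2.70 in sTX and 3.02, 3.18 and 2.85 in aTX. Foxm1, the transcription factor of late cell cycle genes, changed by 1.52 and 1.67. Cks1b, the sister subunit of Cks2, rose by 1.49 and 1.90, and besides Ccna2 it was the gene of this role called higher in aTX than in sTX (0.42 ± 0.10, adjusted p = 0.00323), although its second probe set had a change of -0.26 there (adjusted p = 0.474).

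The 3 mitotic kinases split. Plk1, which acts from entry into mitosis to cytokinesis, rose and Melk fell. Plk1 read 13.5, 12, 3.4, 3.6 and 15.3 in the controls, 110.4, 73, 70.5, 58.7 and 64.8 in the isografts and 112.5, 123.4, 129.2, 117.2 and 130.9 in the allografts. No isograft reached the range of the allografts, though sTX 1 came close to it. Its log2 change was 3.22 ± 0.34 in sTX (adjusted p = 1.60e-06) and 3.96 ± 0.34 in aTX (adjusted p = 7.73e-09), and between the grafts 0.73 ± 0.34 (adjusted p = 0.109). Aurka, the kinase of the spindle poles, had 13.1, 14.6, 18.2, 12.5 and 20.2 in ctr, 67.6, 42.4, 46, 19.2 and 41.4 in sTX and 77.6, 91.6, 80.5, 72.1 and 65 in aTX. The low isograft, sTX 4, lay within the range of the controls, and sTX 1 was above aTX 5. Aurka rose by 1.38 ± 0.24 in sTX (adjusted p = 0.000421) and by 2.32 ± 0.24 in aTX (adjusted p = 1.19e-07), and was higher in aTX than in sTX by 0.94 ± 0.24 (adjusted p = 0.00446). With the wash run as a block in the model, its adjusted p was 0.0590 in sTX against ctr and 0.0738 in aTX against sTX. Melk is a kinase often counted among proliferation genes, and its single probe set went the other way, with 207.5, 181.3, 217.1, 175.4 and 171.5 in ctr, 164.2, 103.7, 140.5, 123.8 and 159.6 in sTX and 128.3, 153, 146.5, 175 and 133.4 in aTX. Every isograft lay below every control, and 4 of the 5 allografts did. The log2 change was -0.48 ± 0.12 in sTX (adjusted p = 0.00737) and -0.37 ± 0.12 in aTX (adjusted p = 0.0141). With the run as a block these became -0.21 (adjusted p = 0.688) and -0.27 (adjusted p = 0.122).

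Of the 9 roles the spindle checkpoint had the largest median log2 changes, 3.06 in sTX and 3.72 in aTX, and all 5 of its genes were higher in both grafts. Bub1, a kinase that recruits the checkpoint to kinetochores, read 6.6, 11.5, 5.6, 1.8 and 6.2 in ctr, 61.9, 54.8, 49.8, 28.5 and 39.1 in sTX and 85.2, 87.8, 92.2, 89.3 and 86.7 in aTX. Its allografts were nearly level and stood above every isograft. Bub1 rose by 3.06 ± 0.34 in sTX (adjusted p = 2.44e-06) and by 4.02 ± 0.34 in aTX (adjusted p = 4.80e-09), and was higher in aTX than in sTX by 0.97 ± 0.34 (adjusted p = 0.0306). Its call between the grafts was lost with the run as a block (adjusted p = 0.158). Bub1b, the BubR1 component of the mitotic checkpoint complex, had 1.7, 2, 14, 1.6 and 1.3 in ctr, 46.8, 35.7, 26.5, 34.5 and 27.4 in sTX and 49.1, 56.4, 56.8, 41.9 and 53.6 in aTX. Among its controls ctr 3 stood far above the rest. The log2 change of 3.74 ± 0.46 in sTX (adjusted p = 8.90e-06) was the largest of the 49 genes in that comparison, and it was 4.36 without ctr 3. In aTX it was 4.35 ± 0.46 (adjusted p = 1.32e-07), and 4.97 without ctr 3. Ttk, the Mps1 kinase, read 3.4, 6.8, 4.6, 9.6 and 3.5 in ctr, 67.2, 65.3, 45.1, 42 and 30.9 in sTX and 82.3, 85.1, 63.2, 66.2 and 48 in aTX. It rose 9.36-fold and 13.2-fold (adjusted p = 1.55e-07 and 1.38e-09), the graft groups overlapped, and their difference was 0.49 ± 0.29 (adjusted p = 0.206).

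Mad2l1, which encodes the checkpoint protein Mad2, was among the genes that set the grafts apart. Its signal was 13.9, 20.6, 14.9, 25 and 26.3 in ctr, 79.4, 90.7, 80.6, 55.2 and 68.2 in sTX and 139.1, 159.4, 149.6, 147.5 and 160.4 in aTX. All 3 groups were separate, with a wide gap between the highest isograft and the lowest allograft. The log2 change was 1.92 ± 0.17 in sTX and 2.95 ± 0.17 in aTX (adjusted p = 1.37e-07 and 1.64e-11), and 1.03 ± 0.17 in aTX against sTX (adjusted p = 5.28e-05). Bub3, a partner of Bub1 and BubR1, had a small change: 457.5, 435.9, 465.7, 448.9 and 482.5 in ctr, 518.3, 577.6, 520.9, 477 and 557.4 in sTX and 597.4, 607.4, 644.8, 609.5 and 662.5 in aTX. Every allograft was above every other kidney, whereas sTX 4 lay below ctr 5. Bub3 changed by 0.21 ± 0.06 in sTX (adjusted p = 0.0223), 0.45 ± 0.06 in aTX (adjusted p = 4.15e-06) and 0.24 ± 0.06 between the grafts (adjusted p = 0.00412). The sTX call of Bub3 was lost without ctr 2, sTX 2 or sTX 5 (adjusted p = 0.0582, 0.0664 and 0.0527), and its dimmer second probe set was called in none of the 3 comparisons.

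**Figure D3:**
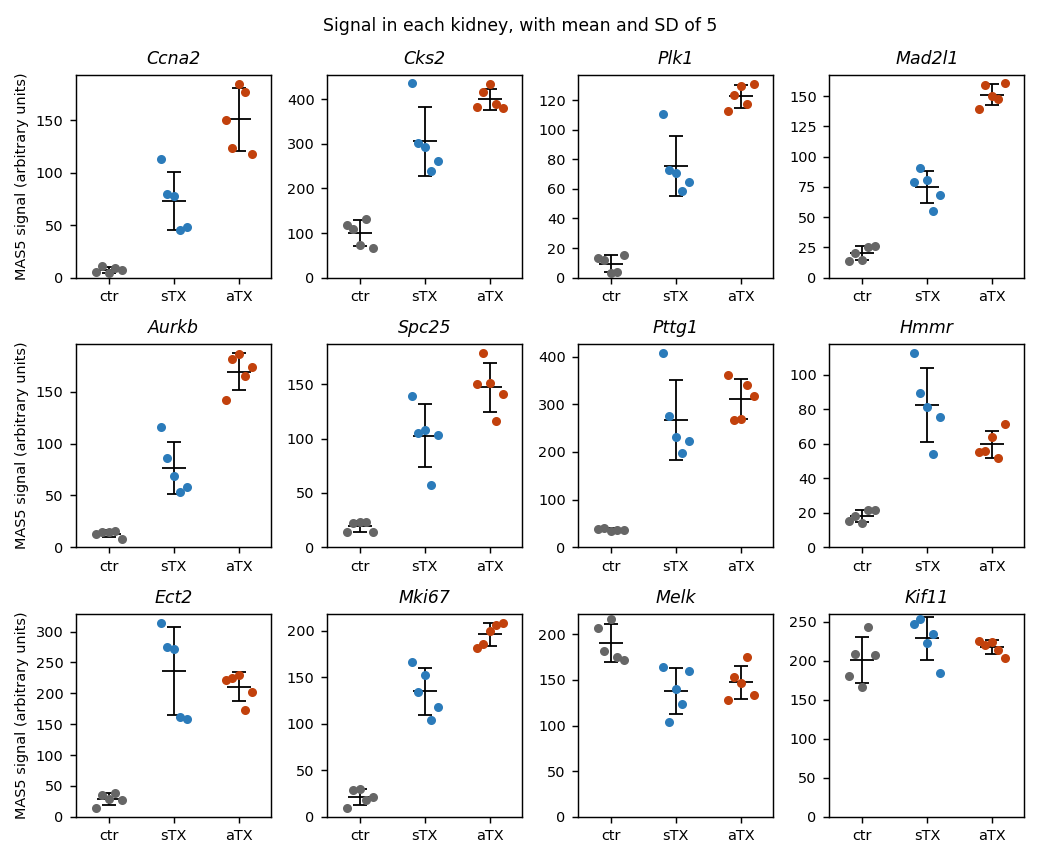
Signal of 12 of the genes in each kidney (MAS5 signal, linear axis from 0; points are kidneys, bars the mean ± SD of 5), in the groups ctr, sTX and aTX. Ccna2, Mad2l1 and Aurkb show 3 separate groups, Hmmr and Ect2 run highest in sTX 1, Melk lies lower in the isografts than in every control, and Kif11 overlaps in all groups.

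The chromosomal passenger complex, which corrects faulty attachments and later marks the cleavage plane, had 4 genes measured, all higher in both grafts, and 3 of them higher in aTX than in sTX. Aurkb, its kinase, had the largest change of the 49 genes between the grafts. It read 13.2, 14.4, 14.6, 15.8 and 8 in ctr, 115.9, 86.6, 69.1, 53.4 and 58.4 in sTX and 141.8, 181.6, 186.2, 164.8 and 173.6 in aTX. Isografts ran from 53.4 to 115.9 and allografts from 141.8 upward, with no overlap. The log2 change was 2.52 ± 0.20 in sTX (adjusted p = 3.50e-08), 3.72 ± 0.20 in aTX (adjusted p = 6.59e-12) and 1.20 ± 0.20 between the grafts (adjusted p = 6.34e-05). Birc5 encodes survivin, the subunit that places the complex on the centromere, with 28, 21.3, 32.3, 17.9 and 14.6 in ctr, 98.9, 67, 62.8, 60.8 and 73.9 in sTX and 113.6, 96.9, 97.9, 102.7 and 112.9 in aTX. The graft groups met at sTX 1, which lay above aTX 2 and aTX 3. Birc5 rose 3.27-fold and 4.77-fold (adjusted p = 1.66e-06 and 2.79e-09), and by a log2 change of 0.55 ± 0.18 from sTX to aTX (adjusted p = 0.0233, or 0.0517 once the run was a block). Cdca8, or borealin, had a log2 change of 0.93 between the grafts (adjusted p = 0.0386, and 0.102 with the block), and its sTX change against ctr of 1.87 (adjusted p = 0.000557) was not called with the block (adjusted p = 0.176). Incenp, the scaffold of the complex, had small changes, with 36.7, 33.2, 40.1, 36.3 and 41.6 in ctr, 62, 37.2, 46.3, 57.7 and 55.7 in sTX and 55.7, 49.6, 51.5, 54.2 and 59.6 in aTX. Its isografts overlapped the controls through sTX 2. The changes were 0.44 ± 0.14 in sTX (adjusted p = 0.0291, and 0.0539 to 0.0896 without ctr 1, ctr 2, ctr 4, sTX 1, sTX 4 or sTX 5 and 0.635 with the block) and 0.53 ± 0.14 in aTX (adjusted p = 0.00344), whereas the second of its 3 probe sets had changes of -0.57 and -0.09 (adjusted p = 0.172 and 0.836) and the third 1.24 and 0.64 (adjusted p = 0.0415 and 0.237).

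At the centromere and kinetochore 5 of 6 genes were higher in both grafts, with medians of 2.32 in sTX and 2.63 in aTX. Spc25, a subunit of the Ndc80 complex that grips the microtubule, read 13.7, 22.4, 23.5, 23.6 and 13.8 in ctr, 139.2, 105.3, 108.3, 57.5 and 103.5 in sTX and 149.8, 178.7, 150.9, 116.1 and 140.6 in aTX. The low isograft was sTX 4, and sTX 1 alone reached the allografts. Spc25 rose by 2.39 ± 0.21 and 2.96 ± 0.21 (adjusted p = 1.15e-07 and 3.49e-10), and by 0.56 ± 0.21 between the grafts (adjusted p = 0.0412, and 0.173 with the run as a block). Cenpe, the kinesin that moves chromosomes to the spindle equator, was dim, with 5.3, 1.3, 2, 0.8 and 9.3 in ctr, 17.8, 14.4, 16.7, 10.8 and 14.4 in sTX and 29.1, 22.2, 17.8, 23.4 and 23 in aTX. Both graft groups lay above every control and touched at 17.8, the signal of sTX 1 and of aTX 3. The change was 2.53 ± 0.51 in sTX (adjusted p = 0.00134) and 3.18 ± 0.51 in aTX (adjusted p = 2.71e-05). Cenpa, the histone variant that defines the centromere, was dim throughout, with 1.4, 11, 1.9, 9.7 and 12.2 in ctr, 9.5, 11.2, 2.4, 2.2 and 1.9 in sTX and 6.8, 1.1, 3.4, 9 and 9.3 in aTX. All of these are below the median signal of their arrays, the groups overlapped in full, and the 95% confidence interval of the change in aTX against ctr ran from -1.75 to 1.47. Cenpf, Cenpk and Nuf2 rose by 2.27, 1.88 and 2.36 in sTX and by 2.58, 2.56 and 2.68 in aTX. Of these, Cenpk was higher in aTX than in sTX (0.68 ± 0.20, adjusted p = 0.00912, and 0.0858 with the run as a block).

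All 4 genes of the anaphase trigger were higher in both grafts, with medians of 2.57 and 3.08. Pttg1 encodes securin, which holds separase in check until anaphase, and had 37.3, 41.1, 33.8, 36.5 and 35.1 in ctr, 407.6, 275.9, 230.9, 197.2 and 222.1 in sTX and 362, 266.6, 269.6, 340.9 and 317 in aTX. The controls agreed within a few units, and sTX 1 was the highest of all kidneys. Pttg1 rose 7.03-fold in sTX and 8.42-fold in aTX (adjusted p = 2.49e-10 and 1.30e-12), with 0.26 ± 0.15 between the grafts (adjusted p = 0.186). Espl1, separase itself, read 2.7, 9.2, 6.4, 11.5 and 1.1 in ctr, 32.8, 29.4, 27.1, 29.2 and 27.2 in sTX and 47.8, 48.9, 49.7, 49.8 and 50.7 in aTX. The 3 groups were separate, each graft group with a narrow range. The changes were 2.67 ± 0.44 and 3.43 ± 0.44 (adjusted p = 0.000225 and 1.80e-06), and 0.76 ± 0.44 between the grafts was not called (adjusted p = 0.200). Cdc20, the activator of the anaphase-promoting complex, and Ube2c, its ubiquitin-conjugating enzyme, were higher in aTX than in sTX, by 0.48 ± 0.14 (adjusted p = 0.0113) and 0.62 ± 0.17 (adjusted p = 0.00604). Neither call held with the run as a block (adjusted p = 0.145 and 0.0869). Their changes in sTX against ctr were 1.72 and 2.47.

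Among the 7 spindle motors and assembly factors 6 were higher in both grafts, with medians of 2.21 and 2.52. Kif22, a motor that pushes chromosome arms outward, showed the largest change of the role in aTX. Its signal was 10.5, 14, 12.5, 15.6 and 7.6 in ctr, 115.5, 85.7, 69.9, 64.6 and 74.3 in sTX and 127.7, 140.3, 126.1, 117 and 119.7 in aTX. No groups overlapped, although sTX 1 came close to aTX 4. It rose by 2.78 ± 0.18 and 3.43 ± 0.18 (adjusted p = 2.75e-09 and 4.76e-12) and by 0.65 ± 0.18 between the grafts (adjusted p = 0.00693, and 0.0669 with the run as a block). Hmmr, a microtubule-binding spindle factor that is also named as a hyaluronan receptor, was the gene with the lowest change from sTX to aTX: 15.3, 17.8, 14.1, 21.6 and 21.3 in ctr, 112.7, 89.5, 81.1, 54.1 and 75.2 in sTX and 55.4, 55.6, 63.8, 51.7 and 71.1 in aTX. Both grafts lay above every control, and 4 of the 5 isografts lay above every allograft, the exception being sTX 4. The changes against ctr were 2.18 ± 0.18 and 1.74 ± 0.18 (adjusted p = 5.54e-08 and 8.07e-08), and -0.44 ± 0.18 in aTX against sTX (adjusted p = 0.0605). Without sTX 4 and sTX 5 it was called lower in aTX. Its second probe set had a change of 0.07 in aTX against sTX with all arrays (adjusted p = 0.865). Kif11, the Eg5 motor that separates the spindle poles, had 181.1, 208.7, 167, 243 and 207.5 in ctr, 247.8, 254.2, 223.4, 233.9 and 184.8 in sTX and 225.2, 220.8, 224.2, 213.8 and 204 in aTX. The 3 groups overlapped. Its changes were 0.19 (95% confidence interval -0.02 to 0.39) in sTX and 0.12 (-0.08 to 0.32) in aTX, and its second probe set was called in none of the 3 comparisons. Kif15, Kif2c, Nusap1 and Dlgap5 rose by 1.71 to 2.63 in sTX and by 2.50 to 3.22 in aTX. Of these Kif15 was higher in aTX than in sTX (0.78 ± 0.24, adjusted p = 0.0149, and 0.113 with the run as a block).

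The 6 cytokinesis genes were all higher in both grafts, with every isograft and every allograft above every control in each of them. Their medians were close, 2.47 in sTX and 2.62 in aTX, and the median change from sTX to aTX was 0.02. Ect2, which activates RhoA to form the contractile ring, had the largest change of the role in both grafts. It read 13.8, 36, 28.9, 38.5 and 27.6 in ctr, 314, 275.3, 271.6, 161.4 and 157.8 in sTX and 220.7, 225.5, 229.6, 172.5 and 202.7 in aTX. The isografts fell into a high set, sTX 1, 2 and 3, above all allografts, and a low pair, sTX 4 and 5, below them. The changes were 3.05 ± 0.23 and 2.94 ± 0.23 (adjusted p = 2.08e-08 and 1.88e-09), and -0.12 between the grafts (95% confidence interval -0.60 to 0.37). Prc1 bundles the microtubules of the central spindle and had 22.9, 27.8, 35.3, 30.5 and 35.6 in ctr, 325.1, 181.6, 200, 177.6 and 216.5 in sTX and 202.1, 187.3, 207.3, 169.6 and 230.8 in aTX. Apart from sTX 1 the isografts lay within the range of the allografts. Prc1 rose 7.14-fold and 6.61-fold (adjusted p = 2.89e-10 and 9.77e-12), with -0.11 between the grafts (95% confidence interval -0.43 to 0.20). Kif20a, Kif20b and Kif23, motors of the central spindle and midbody, rose by 2.95, 1.24 and 1.90 in sTX and by 2.91, 1.32 and 2.13 in aTX. Racgap1, the partner of Kif23 in centralspindlin, was the gene of the role called between the grafts (0.42 ± 0.13, adjusted p = 0.0151, and 0.104 with the run as a block). Whether cytokinesis genes differed from the other roles in this respect was not tested.

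The 6 genes of chromosome structure were higher in both grafts, with medians of 1.73 and 1.84. Top2a, the topoisomerase that untangles sister chromatids, had 20.4, 27.6, 28.1, 38.4 and 26.9 in ctr, 180.5, 109.2, 120.1, 108.1 and 97.1 in sTX and 178.2, 160.9, 163.2, 178.7 and 196.3 in aTX. All isografts but sTX 1 lay below every allograft. Top2a rose by 2.11 ± 0.16 and 2.66 ± 0.16 (adjusted p = 1.68e-08 and 2.74e-11) and by 0.54 ± 0.16 from sTX to aTX (adjusted p = 0.00953). Mki67 encodes Ki-67, the protein stained as a marker of cycling cells, and read 9.3, 28.6, 29.8, 18.1 and 21 in ctr, 166.8, 134.3, 152.5, 103.9 and 118.1 in sTX and 181.1, 185.3, 199.9, 206.6 and 207.9 in aTX. The 3 groups did not overlap. Its changes were 2.75 ± 0.23 and 3.31 ± 0.23 (adjusted p = 5.59e-08 and 2.10e-10), and 0.56 ± 0.23 between the grafts was not called (adjusted p = 0.0615). Smc4, a condensin subunit, had 23.1, 18.4, 12.8, 10.3 and 22.2 in ctr, 64.5, 49.2, 69.8, 64 and 49.3 in sTX and 84.1, 20.4, 51.2, 77.9 and 51.4 in aTX. One allograft, aTX 2, lay within the range of the controls, and the other allografts spread more widely than the isografts. Smc4 changed by 1.83 ± 0.31 and 1.63 ± 0.31 (adjusted p = 0.000260 and 0.000175), but its dimmer second probe set was not called in either (adjusted p = 0.984 and 0.170). The condensin subunits Smc2, Ncaph and Ncapd2 rose by 1.63, 1.32 and 1.19 in sTX and by 1.76, 1.47 and 1.93 in aTX, and Ncapd2 was also higher in aTX than in sTX (0.74 ± 0.15, adjusted p = 0.000654).

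**Figure D4:**
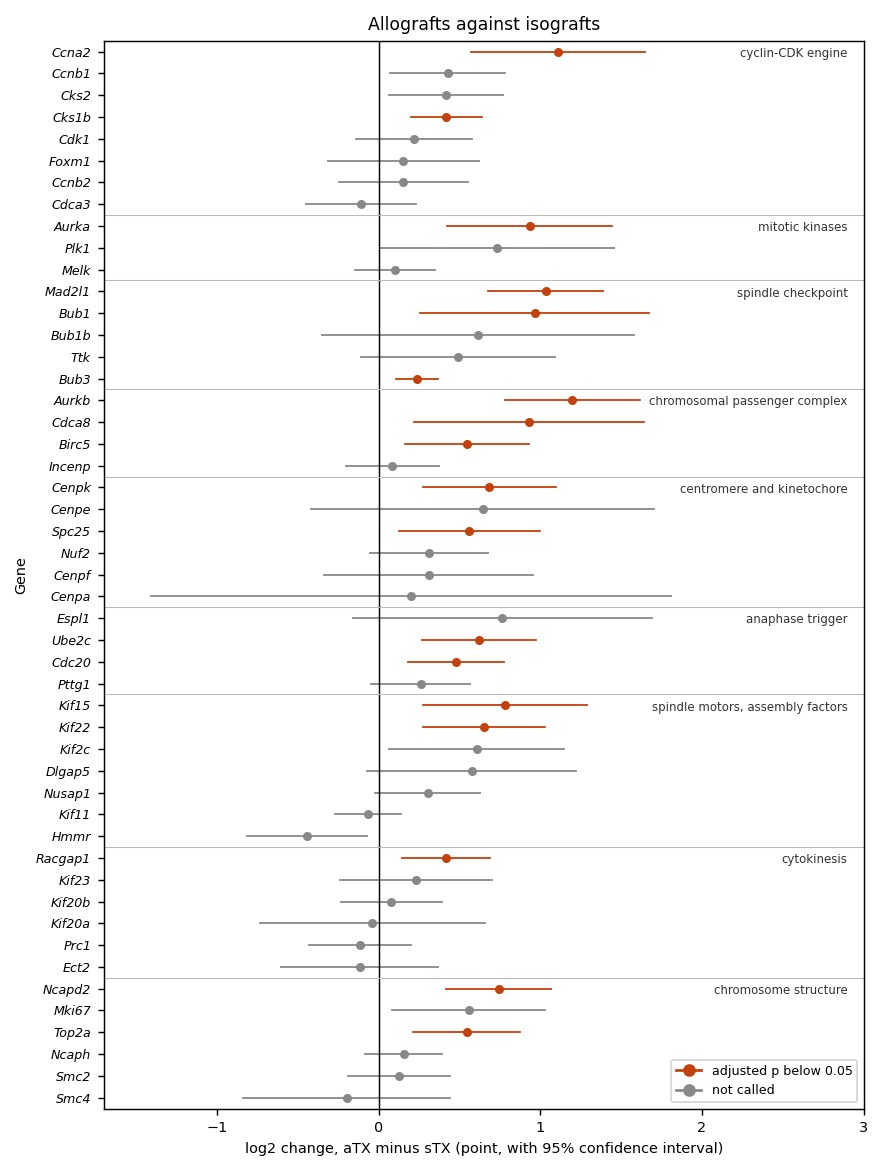
Log2 change from sTX to aTX for the 49 genes, grouped by role, as the estimate with its 95% confidence interval from limma (n = 5 and 5), in orange where the adjusted p was below 0.05. The 18 called genes lie above 0 and reach 1.20 in Aurkb, the lowest estimate is -0.44 in Hmmr, and the cytokinesis genes centre near 0.

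The rise against ctr held within wash runs where it could be read, and the step from isograft to allograft was partly dependent on the arrays used. Within run 1 the 3 allografts stood above the 5 controls with a median log2 difference of 2.60, above 0 in 47 of 49 genes. Within run 2 the 2 allografts stood above the 5 isografts with a median of 0.39, above 0 in 42 genes and below in 7. Allografts of run 2 minus those of run 1 had a median of -0.03. With the run as a block in the model, 39 genes were higher in sTX against ctr (without Aurka, Bub3, Cdca8, Incenp, Cenpe, Espl1 and Smc4), where 2.30% of all probe sets were. In aTX against ctr 46 were higher, where 18.0% of all probe sets were. In aTX against sTX the 7 were Ccna2, Cks1b, Bub3, Mad2l1, Aurkb, Top2a and Ncapd2. No array of sTX shares a run with ctr, so this block rests on the 5 aTX arrays that join the runs. Without sTX 4 and sTX 5 the genes higher in aTX than in sTX were Ccna2, Aurka, Bub3, Mad2l1, Aurkb and Ncapd2, and 1 was lower (Hmmr), where 17.8% of all probe sets were. In sTX against ctr 45 genes were higher without these 2 arrays, since Incenp was no longer called, where 9.77% of all probe sets were. Single arrays decided some calls between the grafts. Bub1 lost its call without sTX 4, sTX 5, aTX 2, aTX 3, aTX 4 or aTX 5 (adjusted p = 0.0514 to 0.0912), and Birc5 without sTX 3, sTX 4, aTX 1 or aTX 5 (0.0508 to 0.0626). Cdca8 lost it without any 1 graft except sTX 1 (0.0508 to 0.0910), and Spc25 without any 1 graft except sTX 1 and aTX 4 (0.0513 to 0.136). Conversely Ccnb1, Cks2, Pttg1, Nusap1 and Mki67 were called higher in aTX without sTX 1, and Ccnb1, Cks2, Bub1b, Espl1, Kif2c, Dlgap5 and Mki67 without 1 of the controls ctr 1, ctr 3, ctr 4 or ctr 5. Hmmr was called lower in aTX without ctr 3, sTX 4 or aTX 5 (adjusted p = 0.0101 to 0.0487). The brightest probe set was not always followed by the next. From sTX to aTX the second probe set of Ccnb1 was called higher (log2 change 0.98, adjusted p = 0.00246), while those of Mad2l1 (0.38, adjusted p = 0.0854), Cdc20 (0.03, adjusted p = 0.947) and Racgap1 (0.26, adjusted p = 0.438) were not called. The third probe set of Mad2l1 was called higher (0.84, adjusted p = 0.00129). Against ctr the second probe set of Foxm1 was not called in either graft (adjusted p = 0.372 in sTX and 0.332 in aTX).

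Beyond the 55 genes, 103 other genes of mitosis were listed, of which 91 were measured. In sTX against ctr 64 of them were higher and 2 lower, with a median log2 change of 0.73, and in aTX against ctr 72 were higher and 5 lower, with a median of 1.07. From sTX to aTX 24 were higher and 8 lower, with a median of 0.28. Of all probe sets 11.4%, 20.2% and 13.9% were higher in these 3 comparisons, and 6.32%, 22.2% and 22.1% were lower. The 3 largest changes in each comparison were as follows. Ska3, of the Ska complex that tracks microtubule ends, had a mean of 1.80 ± 1.72 in ctr, 22.6 ± 6.19 in sTX and 36.3 ± 10.6 in aTX, with log2 changes of 4.30 (adjusted p = 2.68e-05, and 0.0659 with the run as a block) and 4.99. Knstrn rose by 4.13 in sTX and 4.36 in aTX, Plk4, the kinase of centriole duplication, by 3.25 in sTX, and Ska1 by 4.50 in aTX. From sTX to aTX the lamina gene Lmnb1 rose from 158 ± 19.9 to 545 ± 59.1 (log2 change 1.79, adjusted p = 2.68e-09) and the spindle factor Tacc3 by 1.28 (adjusted p = 0.000190). Cenpp went down, from 253 ± 23.3 in ctr and 200 ± 9.93 in sTX to 66.9 ± 9.17 in aTX (log2 change against sTX -1.59, adjusted p = 5.42e-11). With the run as a block, 27 of these genes were higher in sTX against ctr, 71 in aTX against ctr and 17 in aTX against sTX, and without sTX 4 and sTX 5 these counts were 60, 72 and 17. Of all probe sets 2.30%, 18.0% and 11.4% were higher with the block. Without the 2 arrays 3034, 6215 and 3758 of 31042 were.

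Of 20 genes that act before mitosis, at the passage through G1 into S phase, 18 were measured. In sTX against ctr 11 were higher and 1 lower (Rbl2), in aTX against ctr 12 were higher and 1 lower (Ccnd1), and in aTX against sTX 6 were higher and 2 lower (Ccnd1 and Mycn). The medians were 0.79, 1.16 and 0.22. Of all probe sets 11.4%, 20.2% and 13.9% were higher in the 3 comparisons, and 6.32%, 22.2% and 22.1% were lower. Ccne1, the cyclin of S phase entry, stood at 5.24 ± 4.93 in ctr, 26.4 ± 3.38 in sTX and 49.8 ± 8.41 in aTX, with log2 changes of 2.74 and 3.65. The transcription factor E2f1 rose by 1.90 in sTX, and Rbl1 by 1.91 in aTX. With the run as a block the sTX calls of Ccne1 and E2f1 were lost (adjusted p = 0.0811 and 0.0854). Ccnd2, a D-type cyclin prominent in lymphocytes, had 17.6 ± 3.80 in ctr, 31.4 ± 3.95 in sTX and 102 ± 9.64 in aTX, and its log2 change from sTX to aTX was 1.70 (adjusted p = 3.29e-08). From sTX to aTX Myc changed by 1.51 (adjusted p = 2.92e-06) and Mycn by -1.73 (adjusted p = 0.00155), after Mycn had been higher in sTX than in ctr by 1.71 (adjusted p = 0.00454). Both calls of Mycn were lost with the run as a block (adjusted p = 0.185 and 0.931), and that of Myc was not (adjusted p = 0.000274). With the run as a block 3 of the 18 genes were higher in sTX against ctr, 12 in aTX against ctr and 5 in aTX against sTX, and without sTX 4 and sTX 5 the counts were 11, 12 and 5. Of all probe sets 2.30%, 18.0% and 11.4% were higher with the block. Without the 2 arrays 3034, 6215 and 3758 of 31042 were.

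Many markers of other cell types also differed between the groups. In these bulk samples fewer cells of a type and less RNA per cell cannot be told apart, nor do the signals say which cells held the division transcripts. Of 18 leukocyte markers 7 were higher in sTX against ctr and 16 in aTX against ctr, and 16 were higher in aTX than in sTX, with a median of 3.61. Of all probe sets 11.4%, 20.2% and 13.9% were higher in these 3 comparisons, and 6.32%, 22.2% and 22.1% were lower. Every marker list below is to be read beside these shares. The summed leukocyte signal was 2061 to 2438 in ctr, 2231 to 3502 in sTX and 9274 to 11471 in aTX, but 79.9% of it in ctr came from the bright probe set of Cd74. Without Cd74 the sum was 421 to 536 in ctr, 670 to 1065 in sTX and 4608 to 6134 in aTX. Every isograft lay above every control in 5 of the 18 markers (Ptprc, Cd4, Cd68, Csf1r and Laptm5), against 8.44% of all probe sets. Every allograft did in 16, against 16.4%. Cd3d, which T cells carry as part of their antigen receptor, had 9.96 ± 6.83, 14.0 ± 7.42 and 239 ± 58.9 in ctr, sTX and aTX. Cd79b and Ms4a1 were not called in aTX against ctr (adjusted p = 0.543 and 0.389). From sTX to aTX Cd79b (adjusted p = 0.338) and Cd4 were not called. Cd4 stood at 67.8 ± 5.04 in sTX and 61.7 ± 7.41 in aTX (log2 change -0.14, adjusted p = 0.531). None of the measured leukocyte markers was at 0 in any array. The summed signal of the 49 division genes was 1724 to 2032 in ctr, 4457 to 7231 in sTX and 6704 to 7169 in aTX. Every isograft lay above every control in the summed division genes and in the leukocyte sum without Cd74. Among the isografts sTX 1 had the highest sum of the division genes and of the 18 leukocyte markers, but the others were ordered differently. By mean log2 difference from ctr the division genes of sTX 1 to 5 stood at 2.51, 2.13, 2.05, 1.78 and 1.92. The leukocyte markers stood at 1.28, 0.54, 0.46, 1.01 and 0.22, so sTX 4 was lowest in the former and next to sTX 1 in the latter. Of 16 tubule markers 2 were higher and 4 lower in sTX against ctr, and 15 were lower in aTX against ctr and against sTX. The 2 higher in sTX are a share near that of all probe sets. Their sum was 25497 to 28914 in ctr, 22687 to 26773 in sTX and 10944 to 13674 in aTX. Of 11 markers of injured tubules 10 were higher in sTX and 8 in aTX, each against ctr, with 1 lower in either. Their sum was 5900 to 7900 in ctr, 13973 to 20446 in sTX and 15584 to 21628 in aTX. From sTX to aTX 5 were higher (Lcn2, Vim, Cd44, Vcam1 and Anxa2) and 4 lower (Clu, Krt18, Krt8 and Cryab). With the run as a block these counts were 5 and 1. Havcr1 stood at 1024 ± 577 in sTX and 491 ± 197 in aTX (adjusted p = 0.239). By mean log2 difference from ctr this list stood at 2.06, 2.13, 1.83, 1.63 and 1.47 in sTX 1 to 5. All 10 fibroblast markers were higher in sTX and 9 in aTX, again against ctr, with 0 lower, and from sTX to aTX 0 were higher and 6 lower. Of 9 endothelial markers 0 were higher and 2 lower in sTX against ctr, and 1 was higher and 7 lower in aTX against ctr. The 1 higher in aTX is a share below that of all probe sets. With the run as a block, the counts in sTX against ctr were 4 leukocyte markers higher, 0 tubule markers higher or lower, 8 injured tubule markers higher and 0 lower, 7 fibroblast markers higher and 0 endothelial markers lower. From sTX to aTX 2 fibroblast markers were lower with it. Under the block 713 of the 31042 probe sets were higher and 255 lower in sTX against ctr, and 5060 were lower in aTX against sTX. The counts of 0 lie near these shares. Without sTX 4 and sTX 5 no count of these 5 marker lists differed by more than 1. The part of these cell types in the signals of the division genes was not tested.

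**Figure D5:**
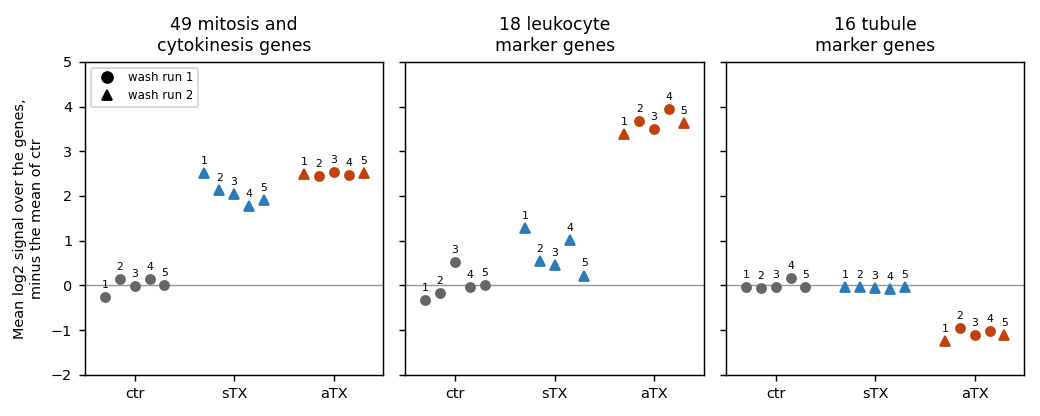
Mean log2 signal over the 49 mitosis and cytokinesis genes, 18 leukocyte markers and 16 tubule markers in each kidney, minus the mean of the 5 ctr arrays, so that each gene counts alike (points are kidneys and numbers their replicates; circles wash run 1, triangles wash run 2). The division genes stood 1.78 to 2.51 above the mean of ctr in sTX and 2.44 to 2.54 in aTX, the leukocyte markers 0.22 to 1.28 and 3.39 to 3.95 (single controls from -0.33 to 0.52), and the tubule markers lay between -0.09 and -0.03 in sTX and between -1.25 and -0.96 in aTX.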

How the data were processed

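Kidneys of 3 groups (5 arrays each) were hybridised to Affymetrix Rat Genome 230 2.0 arrays from 10 µg of total RNA. The deposited values are MAS5 signal intensities, 1 per probe set and array, which the authors scaled to a common mean; versions of the scanner software are not given in the sources used here. The deposited table held 31099 probe sets, of which 57 Affymetrix controls were left out. Of the rest 20826 had 1 gene symbol and 436 several, and 0.05 replaced the 54 signals of 0 found in 36 probe sets. The number of arrays limits the precision. Control, isograft and allograft arrays were assigned by title. The p-values weigh the group differences against the spread between kidneys within the groups. In sTX against ctr that spread holds no difference between wash runs, since these groups share no run.

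Log2 signals of the 31042 probe sets were fitted for the 3 groups together with limma 3.58.1 (R 4.3.3; moderated variance with an intensity trend) and p-values were adjusted with the Benjamini-Hochberg method across the whole table, with 0.05 as the threshold. The methods' t-test was run at its unadjusted threshold of 0.001. Tables were made with Python 3.11.15, pandas 2.3.3 and scipy 1.17.1. The fit was tested on simulated data. Values in every array are given for the genes with the highest mean probe-set signal (a naming rule, since probe sets cannot be ranked by level) and the largest aTX change of each role, for the 5 highest and 5 lowest changes in sTX against ctr and in aTX against sTX, and for genes called lower. For the other mitosis genes and the genes of G1 and S phase entry the 3 largest called changes were named per comparison. This rule was not applied to the marker lists, where Cd3d was picked as an example. The genes, roles, lists and tests were chosen with earlier results of these data known, and no list is independent support.

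Alternatives were 16 added before log2, a floor of 16, median centring, quantile normalization, no intensity trend, a mean signal of 50 or more, only the 2 groups compared, the wash run or the replicate number as a block, no sTX 4 and sTX 5, the second or every probe set, and leaving out each array. Same-numbered arrays of different groups were not treated as pairs, and 0 of 15 had a correlation of deviations above 0.1 (-0.02 to 0.03). These deviations were taken over all probe sets, dim ones included, so they cannot exclude shared donors.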

Additional observations from a re-analysis of the deposited data

Results flagged for a closer look

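In each of the 49 genes and 3 groups, the highest and lowest kidney were set against the other 4 by Dixon's gap criterion, which by chance marks about 1 in 20 groups. The gaps were taken on log2 signals, while the signals printed here are linear. It marked 6 of the 147 groups. Ccnb2 was 291.6 in sTX 1 against 158.1 to 178.6 in the other isografts. Foxm1 was 57.9 in aTX 3 against 36.4 to 41.6 in the other allografts. Among the controls Bub1b was 14 in ctr 3 (others 1.3 to 2), Aurkb was 8 in ctr 5 (13.2 to 15.8), Cdca8 was 3.3 in ctr 1 (14.5 to 21.3) and Smc2 was 45.8 in ctr 2 (26 to 30.4). No array carried more than 1 of these marks.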

How the results depend on the processing

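The 46 genes higher in aTX against ctr kept that call under every alternative that tested their own probe set, with 44 to 46 called higher in sTX against ctr when single arrays were left out. The median log2 change in sTX against ctr was 1.42 with 16 added, 1.68 with a floor of 16, 2.02 with median centring and 1.91 over all 70 probe sets, and in aTX against ctr 1.79 with 16 added and 2.23 with the floor. The gene lower in sTX against ctr was lost (0 called) under the t-test and under the wash run block, and the gene lower in aTX against ctr (0 called) under the wash run block. Between the grafts, 28 genes were higher with only the 2 groups compared (14.5% of all probe sets), 7 with the wash run block (11.4%) and 6 without sTX 4 and sTX 5 (12.1%), and the last 2 counts are shares of the 49 near those of all probe sets. In place of 0 genes lower there was 1 with 16 added, with a mean signal of 50 or more (45 genes tested), with only the 2 groups compared and without sTX 4 and sTX 5, and leaving out each array in turn gave 0 to 1 lower and 14 to 23 higher. The second probe set turned Cks1b in aTX against sTX (-0.26), Incenp in sTX against ctr (-0.57) and Incenp in aTX against ctr (-0.0877). Whether same-numbered arrays share a donor is not given, and 2 of the 15 correlated best with their own number. With the replicate block 46, 46 and 19 genes were higher, and Cks2 was the gene whose call changed. The causes were not tested. Dim signals limit the low genes most, and 30 of the 49 lay below the typical median signal in ctr.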
